A study of Caenorhabditis elegans with 2 samples.

Results

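Autophagy delivers cytoplasm and organelles to the lysosome for breakdown, and mitophagy is its branch for mitochondria. Described here are 30 core autophagy and mitophagy genes of C. elegans, taken by name as a list and all found under the same names among 19973 protein-coding genes of the annotation. For each gene, HIF-1 ChIP-seq regions were sought in a gene window that ran from 2000 bp upstream of the gene start to the gene end. An optimal list of 3531 peaks that passed the irreproducible discovery rate procedure (IDR, which weighs how well 2 replicates rank the same regions) gave 23 summits in the windows of 17 members. A longer list of 30000 pooled candidate regions, which includes background, gave at least 1 region in the windows of 24 members.

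HIF-1 is the worm's hypoxia-inducible transcription factor. The strain, OR3349, carries it with GFP and FLAG at the C-terminus by an insertion that targets hif-1, and chromatin from whole L4 larvae was precipitated with an antibody against GFP per the description in the labels, whose antibody field names the target, hif-1. The larvae were of mixed sex and had been synchronised by starvation as L1 larvae 52 hours earlier. The 2 libraries are biological replicates of 1 group, so no conditions were compared. The oxygen level is not stated in the labels, and no list from another strain was analysed here. Whole animals mix all cell types, and a region bound in few cells cannot be told apart from one bound weakly in many. The lists hold no read counts, the depth of the libraries is unknown, and counts are given without tests.

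At normal oxygen HIF-1 is hydroxylated by EGL-9 and degraded. When it is stable, it pairs with AHA-1 and binds hypoxia response elements, whose core is ACGTG or GCGTG. Autophagosomes form in steps: the UNC-51 kinase complex starts the process, a phosphatidylinositol 3-kinase complex marks the membrane, lipids are brought to it, and the ubiquitin-like LGG proteins are coupled to it. Cargo receptors fill the vesicle and tethers guide its fusion with lysosomes. Mitochondria are marked either by the PINK-1 kinase and the PDR-1 ligase or by receptors in their outer membrane such as DCT-1. In mammals the genes of the related receptors BNIP3 and NIX are established HIF-1 targets. The palindrome CACGTG, an E-box, is bound by other helix-loop-helix factors as well, among them HLH-30, the worm TFEB protein and a regulator of autophagy genes.

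The sequences below are the 101 bp around the summits of 5 of the members that carried a core within 50 bp of their strongest peak, and they show where the core lay relative to the summit. They were read from the + strand of the RefSeq genome of WBcel235 (ce11), 5′ to 3′. Capitals mark a core, written CACGC where GCGTG lies on the other strand, or CACGTG, which contains ACGTG on both strands.
atg-13, chrIII:8158520-8158620: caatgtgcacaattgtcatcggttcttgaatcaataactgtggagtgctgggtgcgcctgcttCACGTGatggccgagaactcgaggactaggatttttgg
atg-9, chrV:349190-349290: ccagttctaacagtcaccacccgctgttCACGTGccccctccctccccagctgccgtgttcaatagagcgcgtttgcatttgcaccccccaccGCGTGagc
epg-5, chrII:6609559-6609659: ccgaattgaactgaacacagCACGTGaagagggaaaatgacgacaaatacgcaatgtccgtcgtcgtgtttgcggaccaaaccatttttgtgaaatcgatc
bec-1, chrIV:5665500-5665600: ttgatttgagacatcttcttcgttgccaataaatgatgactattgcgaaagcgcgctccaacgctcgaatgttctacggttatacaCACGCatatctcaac
atg-2, chrX:6804975-6805075: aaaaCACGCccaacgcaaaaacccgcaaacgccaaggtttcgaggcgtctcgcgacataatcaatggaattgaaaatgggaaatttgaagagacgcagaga
In atg-13 the palindrome was centred 15 to 16 bp from the summit, in atg-9 it was 19 to 20 bp away with a separate GCGTG at 45 bp, and in epg-5 it was 27 to 28 bp away. The GCGTG of bec-1 lay 38 bp from the summit and that of atg-2 lay 44 bp away. The atg-13 palindrome was flanked to give TCACGTGA.

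The strongest peaks among the members held no core in the same span. For contrast, the next 3 sequences are the strongest summits of the initiation gene epg-9, the mitophagy receptor gene dct-1 and the LC3 gene lgg-2, on the same strand and build and with no capitals because no core was found. They were chosen after their values were seen.
epg-9, chrIV:2602106-2602206: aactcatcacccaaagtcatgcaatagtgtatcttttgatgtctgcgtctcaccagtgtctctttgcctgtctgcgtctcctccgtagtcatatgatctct
dct-1, chrX:7952436-7952536: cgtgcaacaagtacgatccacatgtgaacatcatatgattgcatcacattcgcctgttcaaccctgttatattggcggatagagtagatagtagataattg
lgg-2, chrIV:10936102-10936202: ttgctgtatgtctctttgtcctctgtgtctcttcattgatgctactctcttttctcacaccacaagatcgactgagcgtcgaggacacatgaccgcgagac
No match means only that these letters were not in this window, and a match is a description of the sequence, not a bound site.

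Of the 30 members, 17 (56.7%) had an IDR summit in the gene window, against 17.0% of all protein-coding genes. A promoter window, from 1000 bp upstream to 200 bp downstream of any transcript start of the gene, held an IDR summit for 10 members (33.3%) and for 12.2% of all genes. When a summit was counted only for the gene with the nearest start, 14 members (46.7%) and 11.6% of all genes had one. A pooled candidate region that was also found in both replicate lists, with summits within 100 bp, lay in the windows of 20 members (66.7%) and of 33.2% of all genes. Any pooled candidate lay in the windows of 24 members (80%) and of 48.4% of all genes. The members thus stood above the background by each count. The counts overlap and are not separate lines of support, and the members were chosen with earlier results of these data known.

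Long windows hold more summits, and the members' windows were longer, with a median of 4669 bp (range 2666 to 13022) against 4027 bp for all genes. Per 10 kb of window there were 1.265 summits for the members and 0.4029 for all genes. Among the 10 members with windows of 3666 to 4490 bp, 7 had a summit, against 14.5% of all genes in that class. Among the 10 with windows of 6322 bp or more, 5 had one, against 26.6%. In the class of 4491 to 6321 bp it was 3 of 7 members against 19.1% of genes, and in the shortest class, up to 3056 bp, 2 of 3 against 12.9%. The bar plot by window length shows that the members' share was above that of all genes in each class that held members, with few members in each.

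**Figure D1:**
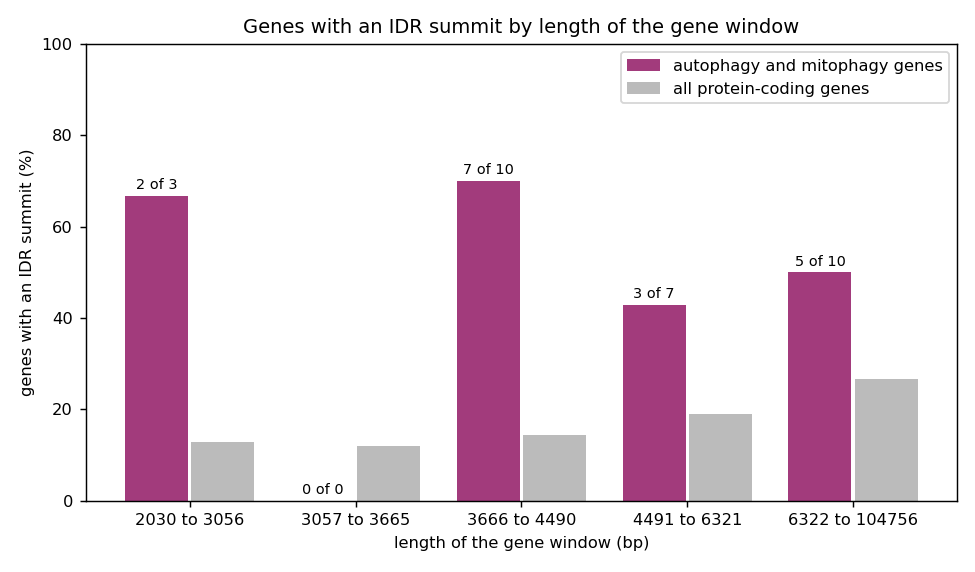
Share of genes with an IDR summit in the gene window (y axis, percent, from 0) by class of window length (x axis, bp) for the 30 members (purple, counts printed above) and all protein-coding genes (grey). The share of all genes was between 11.9% and 26.6%, and members were above it in the 4 classes that held any.

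The members' peaks were of middling strength. Signal here is the authors' own value for each region relative to a control, and it is comparable only within a list. The 23 summits had a median pooled signal of 178 (range 98.1 to 514), against 158 for all IDR peaks (range 95.1 to 7830), and 15 of the 23 were above the median of all. Only the intronic epg-9 peak and the stronger dct-1 peak were among the 353 strongest. All 23 summits had a match in the lists of both replicates, as did 96.1% of all IDR peaks, and no replicate summit was more than 81 bp from the pooled one. By rank, 19 of the 23 were among the 3531 strongest regions of each replicate (82.6%), as were 2464 of all IDR peaks (69.8%).

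**Figure D2:**
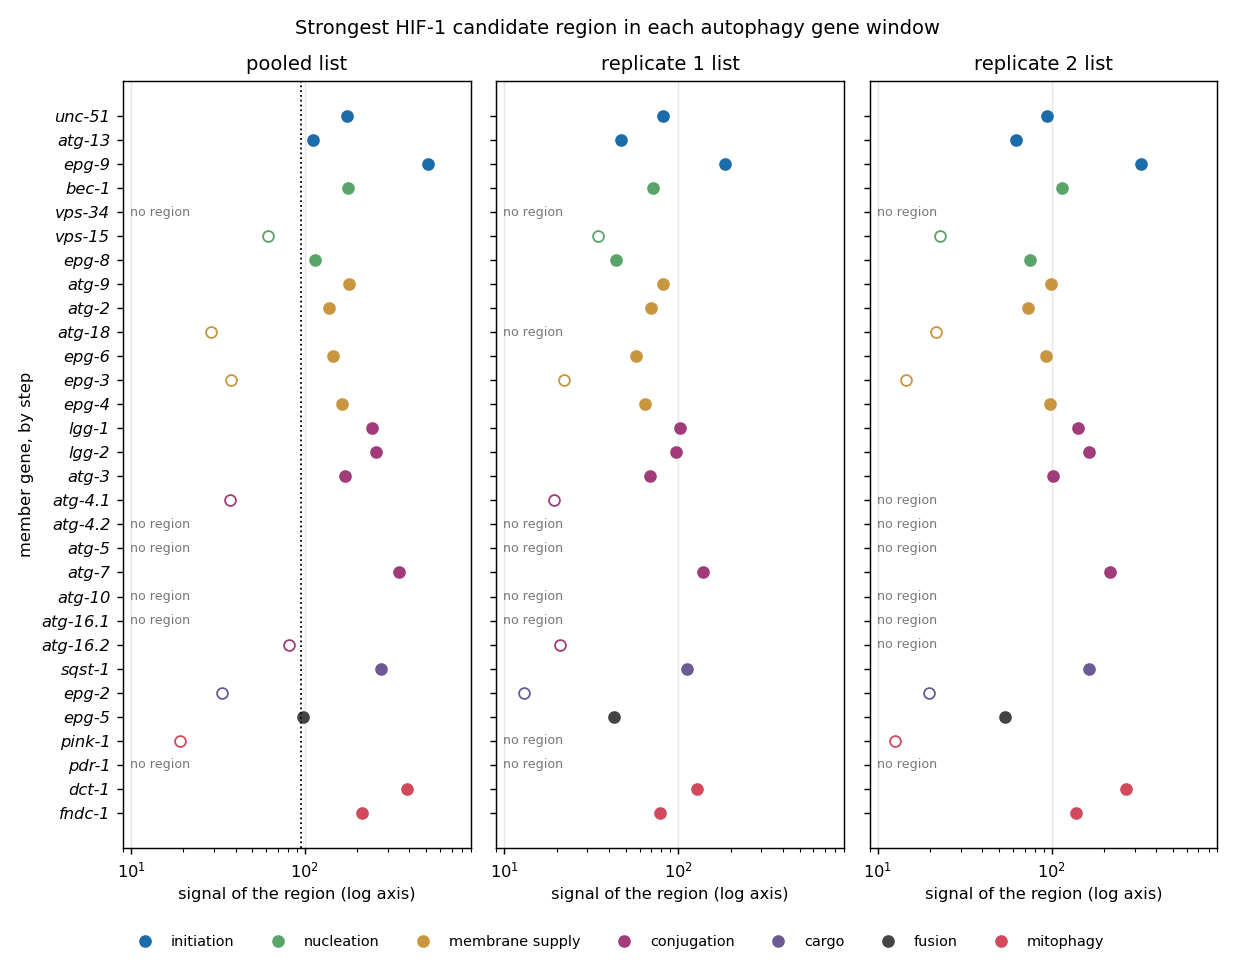
Signal of the strongest pooled region in each member's gene window (left, log axis) and of the matching region within 100 bp in replicate 1 (middle) and replicate 2 (right), with colours for the steps. Filled points are IDR peaks and open points are candidates only, the dotted line marks the lowest IDR signal of 95.1, and "no region" marks members without a region or without a match. The 17 filled points lie between 98.1 and 514 in the pooled list and the 7 open points between 19.2 and 81.5.

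All 3 genes of the initiation complex had an IDR peak in the gene window, against 17.0% of all genes. Only atg-13 had one in the promoter window, against 12.2% of all genes. The windows of unc-51 (10500 bp) and epg-9 (8324 bp) were in the longest class, where 26.6% of all genes had a summit. The counts by step here and below stand beside that same 17.0%, and each step holds few genes. The strongest peak of any member lay in an intron of epg-9, the ATG101 homologue, 1015 bp downstream of the gene start (chrIV:2601982-2602405). Its signal was 514 in the pooled list (rank 195), 187 in replicate 1 (rank 209) and 328 in replicate 2 (rank 199), so its place in the order was nearly the same in each list. A further epg-9 peak lay 1307 bp upstream (chrIV:2599736-2599956), with 259 pooled, 102 in replicate 1 and 155 in replicate 2. The peak of unc-51, which encodes the ULK1-type kinase, lay 1456 bp upstream (chrV:20005819-20006040), outside the promoter window, with 174 pooled, 81.4 in replicate 1 and 93.7 in replicate 2. Its summit also lay in the gene window of Y60A3A.23, but the nearest start was that of unc-51. The atg-13 peak, at the gene of the kinase's regulatory subunit, was weaker but close to the start, 380 bp upstream (chrIII:8158362-8158777). It had 111 pooled, 47.2 in replicate 1 and 62.7 in replicate 2, and held the palindrome printed above.

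Of the 4 nucleation genes, bec-1 and epg-8 had an IDR peak. The peak of bec-1, the Beclin 1 homologue, lay 1125 bp upstream (chrIV:5665452-5665658), with 178 pooled, 72.0 in replicate 1 and 114 in replicate 2. The peak of epg-8, the ATG14 homologue, lay 252 bp upstream (chrI:9934334-9934749), with 114.5 pooled, 43.8 in replicate 1 and 75.2 in replicate 2. The catalytic kinase gene vps-34 had no candidate region at all. The gene of its regulatory subunit, vps-15, had 3 candidates, 2 of them found in both replicates, and no IDR peak. The strongest lay 1892 bp upstream and in a 3′ UTR with hmg-12 as the nearest start. It had 61.4 pooled, 34.5 in replicate 1 and 22.9 in replicate 2. IDR peaks thus lay at the genes of the 2 adaptor subunits and not at those of the kinase or its partner. Most genes lack an IDR summit (17.0% of all protein-coding genes had one), so the 2 without a peak do not set the complex apart.

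Membrane supply had IDR peaks at 4 of 6 genes. The peak of atg-9, which encodes the transmembrane protein of autophagy vesicles, lay 145 bp upstream (chrV:349122-349340), with 181 pooled, 81.6 in replicate 1 and 98.6 in replicate 2. The peak of epg-4, the EI24 homologue of the endoplasmic reticulum, lay 169 bp upstream (chrIII:7181925-7182029), with 164 pooled, 64.4 in replicate 1 and 97.6 in replicate 2. The peak of epg-6, a phosphoinositide-binding WIPI family gene, lay in an intron 334 bp inside the gene (chrIII:10599646-10600061), with 146 pooled, 57.2 in replicate 1 and 92.4 in replicate 2. That summit was 198 bp upstream of another transcript start of epg-6, so it counted as a promoter peak. The peak of atg-2, whose homologues transfer lipids to the growing membrane, lay 1738 bp upstream (chrX:6804969-6805123), with 139 pooled, 70.1 in replicate 1 and 72.9 in replicate 2. The other WIPI family gene, atg-18, had a candidate of 29.0 pooled in a coding exon that was matched in replicate 2 (21.6) and not in replicate 1, where the nearest summit was 574 bp away. The VMP1 homologue epg-3 had a candidate in both replicates 331 bp upstream, with 37.9 pooled, 22.1 in replicate 1 and 14.4 in replicate 2. Neither candidate reached the lowest IDR signal of 95.1.

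**Figure D3:**
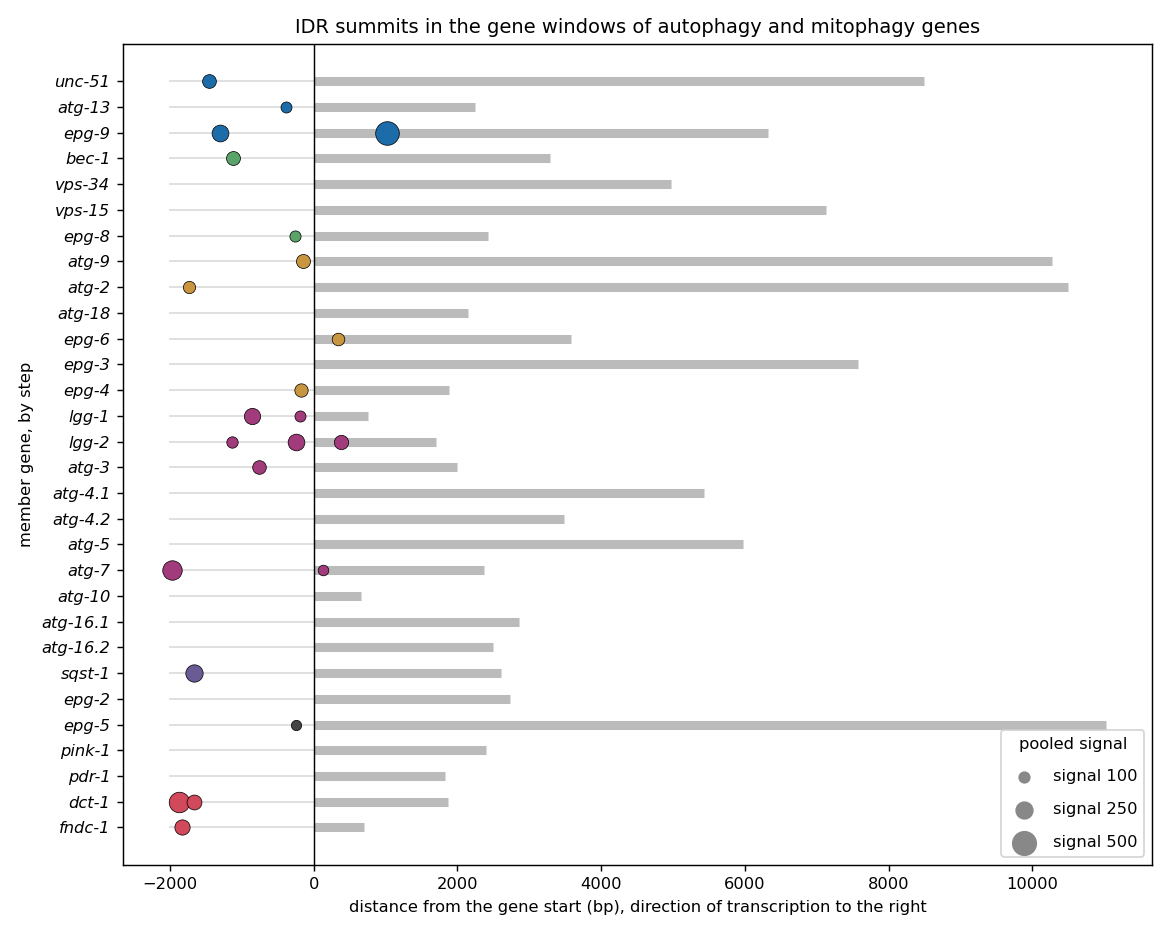
IDR summits in the members' gene windows, with distance from the gene start on the x axis (bp, transcription to the right) and 1 row per gene. Grey bars are gene bodies, thin lines the 2000 bp upstream, and the area of a point grows with the pooled signal. Summits of atg-7, dct-1 and fndc-1 lie near the upstream edge, and 12 of the 23 summits lie in the gene's own promoter window.

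The 10 conjugation genes held 8 summits, all at 4 genes: lgg-1, lgg-2, atg-3 and atg-7. The LC3-type gene lgg-2 was the only member with 3 summits. The strongest lay 249 bp upstream (chrIV:10935981-10936335), with 256 pooled, 97.3 in replicate 1 and 164 in replicate 2. The next lay in an intron 385 bp inside the gene (chrIV:10935377-10935653), with 189 pooled, 69.1 in replicate 1 and 127 in replicate 2. It counted as a promoter peak through another transcript start of lgg-2, farther from the summit than the gene start. All 3 lay in the gene window of fic-1 as well, and the distal one (chrIV:10936977-10937146) lay in the fic-1 promoter window, 415 bp from its start against 1136 bp from lgg-2. This distal summit had 119.5 pooled, 42.2 in replicate 1 and 87.0 in replicate 2, and a GCGTG 20 bp away.

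The GABARAP-type gene lgg-1 had 2 summits in its promoter window of which 1 ranked unequally in the replicates. The distal one, 857 bp upstream (chrII:6348387-6348741), had 243 pooled, 103 in replicate 1 (rank 793) and 142 in replicate 2 (rank 990). The proximal one, 182 bp upstream (chrII:6347811-6348088), had 113 pooled, 21.9 in replicate 1 (rank 12001) and 95.4 in replicate 2 (rank 1842). It was the member peak with the most unequal ranks, and lgg-1 kept a promoter peak without it. Its summit also lay in the gene window of C32D5.8.

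Among the enzyme genes of conjugation, atg-7 and atg-3 had IDR peaks and atg-4.1, atg-4.2 and atg-10 had none. Absence is common, since 17.0% of all protein-coding genes had an IDR summit and 48.4% a pooled candidate. The gene of the E1-like enzyme, atg-7, had a peak in a coding exon 125 bp inside the gene (chrIV:11080722-11081137), with 103 pooled, 43.4 in replicate 1 and 68.1 in replicate 2. A stronger one lay 1964 bp upstream (chrIV:11082792-11083161), with 348 pooled, 139 in replicate 1 and 216.5 in replicate 2. That stronger summit lay in the promoter windows of both klc-1 and let-70, 716 bp from the klc-1 start, and was thus nearer to their starts than to that of atg-7. The peak of atg-3, the gene of the E2-like enzyme for the LGG proteins, lay 758 bp upstream (chrIV:1009546-1009961) but 20 bp upstream of the start of Y55F3AM.9. It had 171 pooled, 68.6 in replicate 1 and 101.5 in replicate 2, and TCACGTGA centred 18 to 19 bp from the summit. No candidate region was found at atg-4.2, the gene of a protease that trims the LGG proteins, at atg-5, the ATG16 partner, at atg-10, the E2-like enzyme gene for the ATG12 homologue, or at the ATG16 homologue atg-16.1. The other protease gene, atg-4.1, had a candidate of 37 pooled in an intron, nearest to aex-6, with 19.3 in replicate 1 and no match in replicate 2, where the nearest summit was 200 bp away.

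The other ATG16 homologue, atg-16.2, came closest to the IDR list among members without an IDR peak. Its pooled candidate lay 196 bp upstream with a signal of 81.5 (rank 4246), below the lowest IDR signal of 95.1. It was matched in replicate 1 at 20.8 (rank 13080) and had no summit of replicate 2 nearer than 2689 bp. The pooled value therefore stood without a matching region in replicate 2.

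Among the cargo genes, sqst-1 had an IDR peak and epg-2 did not. The sqst-1 gene encodes the p62 homologue, a cargo receptor. Its peak lay 1668 bp upstream (chrIV:12032456-12032811), with 276 pooled, 112 in replicate 1 and 164 in replicate 2. The summit lay also in the gene window of T12G3.6, and the nearest start was that of mrpl-51, 1290 bp away. The adaptor gene epg-2, needed for removal of P granule proteins, had a candidate of 33.4 pooled (12.9 in replicate 1, 19.6 in replicate 2) in a 3′ UTR, nearest to tpxl-1. The only fusion gene on the list, epg-5, which encodes a tether between autophagosomes and late endosomes or lysosomes, had the weakest IDR peak of the members, 244 bp upstream (chrII:6609401-6609816). It had 98.1 pooled (rank 3378), 42.65 in replicate 1 (rank 3647) and 53.55 in replicate 2 (rank 4038), so in each single replicate it fell outside the 3531 strongest regions.

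Of the 4 mitophagy genes, the receptor genes dct-1 and fndc-1 had IDR peaks in the gene window, and pink-1 and pdr-1 did not. None of the 4 had one in the promoter window, against 12.2% of all genes. With a window of 1000 bp upstream neither receptor gene would have one (all genes 13.9%). Most genes lack an IDR summit, so the counts of 4 genes do not set receptor genes apart from pink-1 and pdr-1. At dct-1, the BNIP3 and NIX homologue, 2 summits shared 1 interval (chrX:7952257-7952854). The stronger summit, 1868 bp upstream, had 387 pooled (rank 348), 128 in replicate 1 (rank 482) and 267 in replicate 2 (rank 307). The weaker one, 1665 bp upstream, had 203 pooled, 80.0 in replicate 1 and 141 in replicate 2. Both were nearest to dct-1 and in no other gene's window, though outside its promoter window. The peak of fndc-1, the FUNDC1 homologue that acts in clearance of paternal mitochondria, lay 1832 bp upstream (chrII:11239070-11239279), with 214 pooled, 78.9 in replicate 1 and 138 in replicate 2. This summit lay in the promoter windows of T06D8.9 and rpn-9, 238 bp from the rpn-9 start. At pink-1, a weak candidate of 19.2 pooled lay in an intron 82 bp from the start, matched at 12.5 in replicate 2 and not in replicate 1, and pdr-1 had no candidate.

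Ranks in the 2 replicates were close for most member peaks. The median rank of the 23 was 1546 in replicate 1 (209 to 12001) and 1685 in replicate 2 (199 to 4038). The peaks outside the 3531 strongest of at least 1 replicate were the proximal lgg-1, the distal lgg-2, the exonic atg-7 and the epg-5 peak. In the plot of ranks the member peaks lie within the cloud of all shared IDR peaks, and the proximal lgg-1 peak lies at its right.

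**Figure D4:**
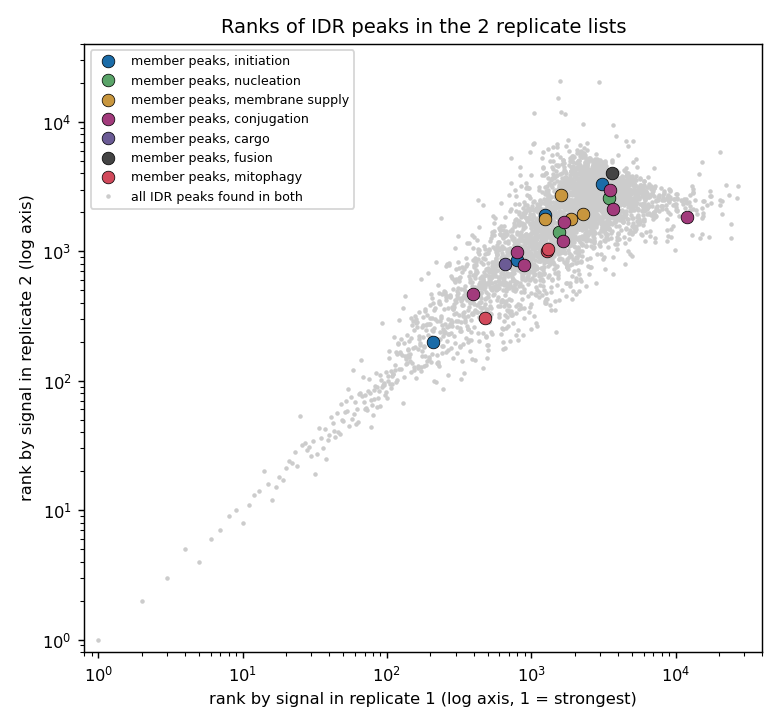
Rank by signal in replicate 1 (x axis) and replicate 2 (y axis), both log axes with 1 as the strongest, for the 23 member peaks (coloured by step) and all 3393 IDR peaks found in both lists (grey). The epg-9 peak is lowest at left, at ranks 209 and 199, and the proximal lgg-1 peak is farthest right among the members, at 12001 and 1842.

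Several summits lay between genes. Of the 23, 19 were intergenic, 3 intronic and 1 in a coding exon, and none lay within 250 bp of a tRNA gene. The shares of these places over all IDR peaks are not given, so whether the members differ from the list is not known. A start of another gene was nearer for 5 summits, at lgg-2 (distal), atg-3, atg-7 (upstream), sqst-1 and fndc-1. Another gene's window held 9 summits and another gene's promoter window 4. Shares over all IDR peaks were not counted for these neighbours either, so whether such counts are usual is not known. Which gene a region acts on was not measured. The 12 summits in the member's own promoter window had a median signal of 155 (98.1 to 256.2), and the 11 outside it had a median of 214 (119.5 to 514). Counted by the promoter window of any gene, 15 member summits were inside with a median of 163.7 (98.1 to 347.9), and 8 were outside with a median of 231.3 (138.7 to 514). Split in this same way, all IDR peaks had a median of 170.8 for the 2010 inside and 144.8 for the 1521 outside. The members' ranges inside and outside overlapped widely, and the difference was not tested.

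A core (ACGTG or GCGTG on either strand, wholly within 50 bp of the summit) was present at 7 of the 23 member peaks (30.4%), against 42.1% of all IDR peaks. The members were thus not above the background for the core itself. The palindrome CACGTG was at 4 of the 23 (17.4%), atg-13, atg-9, atg-3 and epg-5, against 5.52% of all IDR peaks. All 4 member peaks with ACGTG had it as part of the palindrome, whereas 195 of the 858 IDR peaks with ACGTG did (22.7%). TCACGTGA was at 2 member peaks, atg-13 and atg-3, and at 31 of all IDR peaks (0.878%). Pooled candidates below the IDR list had a core at 20.8% and the palindrome at 2.84%.

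All 4 palindromes lay at summits in the member's own promoter window. Counted by the promoter window of any gene, CACGTG was at 4 of the 15 member peaks inside, against 4.93% of all IDR peaks inside, and at 0 of the 8 outside, against 6.31%. The count of 0 of 8 was thus near the background. GCGTG was at 2 of the 15 inside, atg-9 and the distal lgg-2 peak, against 23.8%, and at 2 of the 8 outside, bec-1 and atg-2, against 19.1%. ACGTG was at 4 of the 15 inside, against 22.5%, and at 0 of the 8 outside, against 26.7%. Seen from the promoters, CACGTG lay in the promoter windows of 8 members (26.7%) and of 21.5% of all protein-coding genes. An IDR summit lay within 50 bp of it at 4 of these 8 members (50%), and at 2.73% of the 4291 genes. These are the same 4 peaks as above, counted in another way. Promoter summits were also more frequent at members than at all genes (33.3% against 12.2%), and the 2 shares are not adjusted for that. The members with the palindrome and no summit at it were epg-9, sqst-1, epg-2 and pink-1. The plot of cores shows that the 10 strongest member peaks had no core within 50 bp. These peaks share neighbours and come from few genes, and no test was made.

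**Figure D5:**
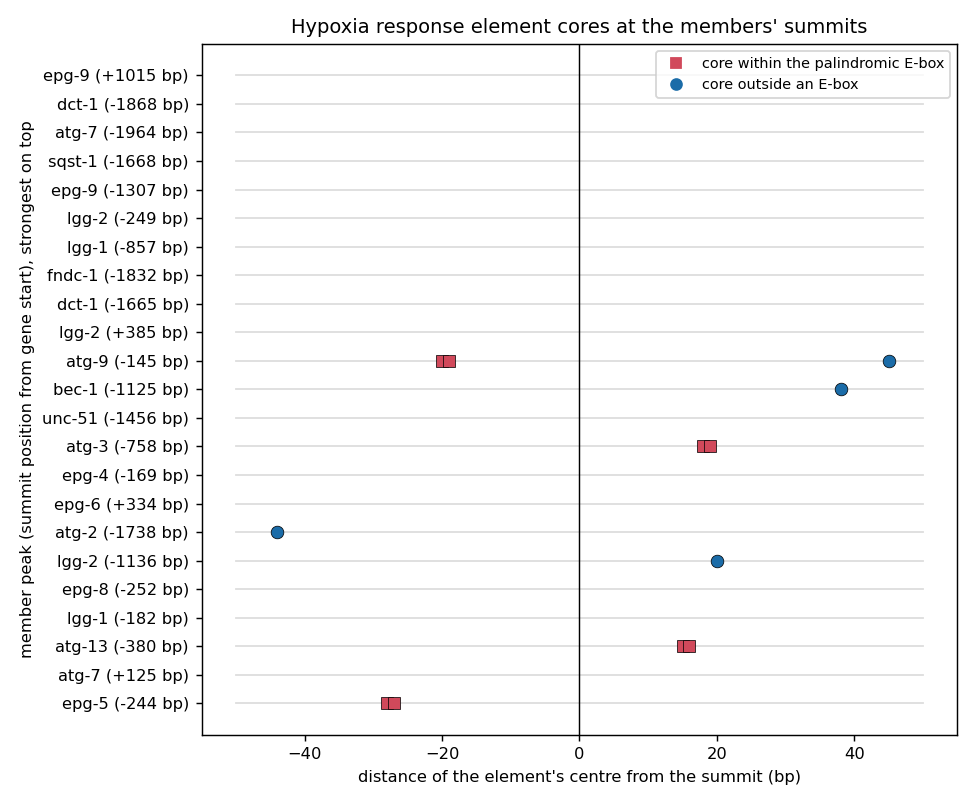
Position of each core relative to the summit (x axis, bp on the + strand) at the 23 member peaks, strongest on top, with each label giving the summit's distance from the gene start. Red squares are cores within CACGTG, drawn for both strands, and blue circles are GCGTG outside it. The cores lie at 7 peaks, between 15 and 45 bp from the summit.

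In a further list of 24 genes of the pathway and its surroundings, 14 (58.3%) had an IDR summit in the gene window, against 17.0% of all genes. In the promoter window 11 had one, against 12.2% of all genes. This list too was chosen with earlier results of these data known, so its share is not an independent repeat of the members' share. It holds long windows, such as those of hlh-30 (22159 bp) and let-363 (19682 bp), against a median of 4027 bp for all genes, and its counts are not split by window length. Among its regulators, hlh-30, the TFEB gene, had 9 summits. The weakest of them, at 98.38 pooled, was matched in replicate 2 (59.69) and not in replicate 1. The strongest lay in an intron, with 2837 pooled, 992.5 in replicate 1 and 1860 in replicate 2, above every member peak. The strongest of 3 peaks at aak-2, a catalytic subunit gene of AMP-activated kinase, had 866.6 pooled, 322.9 in replicate 1 and 535.4 in replicate 2. The TOR kinase gene let-363 had 230.5 pooled, in an intron nearest to the start of vep-1, whereas daf-15 (Raptor) and raga-1 (a Rag GTPase) had no candidate.

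Of the cargo and receptor genes, epg-7, a scaffold for SQST-1 degradation, had 338.7 pooled, and allo-1 and ikke-1, which act in removal of paternal organelles, had 173.8 and 134.6. The cargo gene sepa-1 had no IDR peak. Maturation and fusion genes had IDR peaks at 3 of 9: rab-7, a late endosome GTPase gene, at 560.9 with W03C9.5 as the nearest start, the phosphatase gene mtm-3 at 407.9 and the lysosomal membrane protein gene lmp-1 at 114.5. No IDR peak lay at the SNARE genes syx-17 and snap-29, the tethering genes vps-39, vps-18 and vps-41, or cup-5, a lysosomal channel gene. Genes of mitochondrial dynamics and quality had them at 5 of 6, with 256.8 at the fusion gene fzo-1, 165 at the inner membrane fusion gene eat-3, 147.7 and 132.3 at the prohibitin genes phb-2 and phb-1, 98.12 at the fission gene drp-1, and none at miro-1, whose product links mitochondria to motors. The drp-1 summit lay nearer to the start of fem-1, 58 bp away, and the phb-1 summit nearer to that of Y37E3.8, 285 bp away.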

How the data were processed

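HIF-1 ChIP-seq of 2 biological replicates, 1 group, was analysed from the deposited region lists on ce11. Per the file lists deposited with the samples, candidate regions were called for each replicate and for the pool against a control alignment, and the optimal IDR list was derived from them. The signal of a region is the authors' deposited value and is not scaled between lists. For the aligner and the peak caller, names and versions were not given in the sources used. The ce10 lists were left out. The depth per sample is unknown, and no interval was given.

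Summits (region start plus the deposited offset, the only other column used, which is a position in bp) were assigned to windows of Ensembl release 115 genes and to sequence of the RefSeq WBcel235 genome with Python 3.11.15, numpy 2.4.6 and pandas 2.3.3. The code was tested on simulated data. The members and lists were chosen with earlier results of these data known. All 30 members were named. Of the other pathway genes, those with an IDR summit were to be named by signal, and those without were named besides, after their values were seen. Sequences were those of members with a core at their strongest peak, except atg-3, whose window overlaps a UTR. Alternatives were other windows, distances, motifs, the peaks above the median signal, and each replicate alone.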

Additional observations from a re-analysis of the deposited data

How the results depend on the processing

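The number of members with an IDR summit in the gene window was 11 with 1000 bp upstream in place of 2000 bp (all genes 13.9%). It was 12 with only the peaks above the median signal (all genes 9.86%), 19 with 5000 bp upstream (23.7%), and 16 without replicate 1 (17.3%) and without replicate 2 (16.6%). It was 17 with any base of the region in the window (18%) and without peaks near tRNA genes (16.3%). With only the summits nearest to the member's own start, an alternative chosen after seeing the data, it was 14 (11.6%). The count in the promoter window was 17 with 2000 bp upstream (all genes 15.6%) and 5 with only the peaks above the median signal (7.1%). Members with a candidate in both replicates numbered 18 to 21 under the alternatives tried (all genes 25.4% to 37.9%). All 15 peaks above the median signal and all 13 left with 1000 bp upstream were found in both replicates, as were all 23 with 250 bp between summits. These outcomes were fixed in advance, since all 23 were already found in both with 100 bp. With 50 bp between summits 20 of the 23 were found in both, and 19 were among the 3531 strongest regions of each replicate. All 22 peaks without replicate 1, and 21 of 22 without replicate 2, were matched in both replicate lists. Those peaks came from a single replicate's list, so the match in that list was fixed in advance. Peaks with ACGTG or GCGTG numbered 3 of the 15 above the median, 4 of 13 with 1000 bp upstream and 11 of 30 with 5000 bp. The share of all IDR peaks was 42.1%, and the share of those above the median was not counted. Among the 23 peaks, 4 had a core within 25 bp of the summit (all peaks 25%) and 11 within 100 bp (59.8%). There were 4 with ACGTG alone (24.3%) and 4 with CACGTG (5.52%). The core thus stood below the background at each distance and the palindrome above it. The median signal was 75.47 to 107.8 in the lists of a single replicate, which are on another scale than the pooled list.

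No paired analysis was possible because both samples belong to 1 group. The lists hold no counts, so a missing region cannot be told apart from one below the reach of the libraries. No list from another protein was analysed here.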
